A study of Mus musculus with 4 samples.

Results

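The genes described here are the 9 that encode the AMPA and kainate receptor subunits of the mouse: the 4 AMPA genes Gria1, Gria2, Gria3 and Gria4 and the 5 kainate genes Grik1, Grik2, Grik3, Grik4 and Grik5. They were chosen by symbol from the 31053 genes of the deposited count matrices. Each symbol matched 1 row in every library. Nuclei were isolated from mouse eyes and their RNA was counted by droplet sequencing, so that each nucleus carries its own barcode and each captured molecule its own unique molecular identifier (UMI). There were 4 libraries, 2 from 5-month animals and 2 from 2.5-month animals, each from the left eye of a separately numbered donor. The donors aged 2.5 months are labelled wild type, and the labels of those aged 5 months name no genotype. No strain or sex is given for either age. Per the submitters' processing notes, counting used Cell Ranger 4.0.0 for 5 months and 7.1.0 for 2.5 months, so a difference by age cannot be told apart from one by software version. The series also names human tissue, which is not analysed here.

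AMPA and kainate receptors are ion channels of 4 subunits that open when glutamate binds, and they carry fast excitation between neurons. In the retina, photoreceptors release glutamate in darkness. OFF bipolar cells and horizontal cells receive it through AMPA and kainate receptors and depolarise, whereas ON bipolar cells receive it through the metabotropic receptor mGluR6, encoded by Grm6, and close the cation channel TRPM1. Bipolar cells pass the signal on, again with glutamate, to the AMPA and kainate receptors of amacrine and ganglion cells. Gria2 encodes GluA2, the subunit that makes AMPA receptors nearly impermeable to calcium once its message is edited. Grik1, Grik2 and Grik3 encode GluK1, GluK2 and GluK3, which form channels on their own, and Grik4 and Grik5 encode GluK4 and GluK5, which need one of those as a partner.

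The 9 proteins share a pore loop with a glutamine codon at the Q/R site, the position at which RNA editing can replace glutamine by arginine in GluA2, GluK1 and GluK2. The genomic sequence around that codon is shown because this codon sets the calcium permeability of the channel. Each stretch below holds 60 bases of the coding strand of 1 exon, 5′ to 3′, from the GENCODE M21 annotation of the mouse genome build GRCm38, with the glutamine codon in capitals.
Gria1: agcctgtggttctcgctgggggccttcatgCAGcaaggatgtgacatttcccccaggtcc
Gria2: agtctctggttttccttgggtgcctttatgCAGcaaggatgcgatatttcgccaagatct
Gria3: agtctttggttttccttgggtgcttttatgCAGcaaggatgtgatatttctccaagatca
Gria4: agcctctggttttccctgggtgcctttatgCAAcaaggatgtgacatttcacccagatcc
Grik1: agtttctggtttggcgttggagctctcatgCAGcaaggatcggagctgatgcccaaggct
Grik2: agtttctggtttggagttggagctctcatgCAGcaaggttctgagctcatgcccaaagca
Grik3: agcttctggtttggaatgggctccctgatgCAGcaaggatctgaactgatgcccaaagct
Grik4: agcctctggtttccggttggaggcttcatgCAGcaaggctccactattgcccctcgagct
Grik5: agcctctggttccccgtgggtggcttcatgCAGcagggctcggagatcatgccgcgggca
Gria4 differs from the other 8 in spelling this glutamine CAA. The closest pair of stretches is Gria2 and Gria3, with 55 of 60 bases the same (91.7%), and the closest kainate pair is Grik1 and Grik2, with 54 of 60 (90.0%). An AMPA stretch and a kainate stretch shared between 60% and 71.7% of their bases. The codon lies in exon 11 of 16 of Gria2 (chr3:80706911-80706913, minus strand), in exon 12 of 17 of Grik1 (chr16:87940542-87940544, minus strand) and in exon 13 of 17 of Grik2 (chr10:49244329-49244331, minus strand). The deposited UMI counts sum all reads of a gene, so they hold no information on editing at these codons.

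The 4 libraries held 7537 and 9963 nuclei at 5 months and 7404 and 7422 nuclei at 2.5 months, with 19608067 to 36320257 UMIs in each and a median of 1812.5 to 2899.5 UMIs per nucleus. Pairs of libraries shared 6 to 25 barcodes, at most 0.337% of the smaller library. After filters and removal of called doublets, 30336 nuclei remained, of which 28803 lay in clusters that met the marker rule for a class. The 9 genes, and 56 genes of related function, were kept out of the genes used for clustering. A class name stands below for nuclei in clusters with that class's markers, that is for OFF cone bipolar-like nuclei and so on. OFF cone bipolar nuclei had Erbb4 at 1164 and Tacr3 at 220 counts per 1000000 UMIs of the class (CPM) and Grm6 at only 11.5, whereas ON cone bipolar nuclei had Grm6 at 307, Isl1 at 379 and Trpm1 at 1361. Rod bipolar nuclei had Prkca at 13666, horizontal nuclei Onecut2 at 451, starburst amacrine nuclei Chat at 425, glycinergic amacrine nuclei Slc6a9 at 658 and ganglion nuclei Rbpms at 1103 CPM. Cluster 2, of 3231 nuclei, had the Müller glia genes Glul at 2001 and Slc1a3 at 1137 CPM, but its 10 leading genes held no Müller marker and held Flt1, a marker of endothelium. It is therefore called by its number. Of the 1073 melanocyte nuclei, 312 lay in a cluster with the astrocyte marker Slc4a4 and no melanocyte marker among its 10 leading genes.

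Across classes of nuclei the highest mean of 8 of the 9 genes was found in OFF cone bipolar nuclei or in an amacrine class, in several with overlap with the next class. Grik1 and Gria2 were highest in OFF cone bipolar nuclei, at a mean of 8419 ± 834 and 1408 ± 69.4 CPM (SD, n = 4 libraries). The Gria2 range there overlapped that of starburst nuclei (1295 CPM), above them in 3 of 4 libraries. Gria3, Gria4 and Grik3 were highest in glycinergic amacrine nuclei, at 1035, 2430 and 88.0 CPM. Of these, Grik3 reached 100 CPM in only 1 of the 6 subclusters of glycinergic nuclei. The glycinergic range of Gria3 overlapped that of horizontal nuclei (775 CPM). The glycinergic range of Gria4 overlapped that of amacrine nuclei of neither transmitter class (2161 CPM). Gria1 and Grik2 were highest in the amacrine nuclei assigned to neither transmitter class, at 740 and 3411 CPM. Grik4 had its highest mean, 79.5 CPM, in cluster 2, which stood above horizontal nuclei (63.7 CPM) in 2 of 4 libraries. Grik5 varied least, from 110 ± 20.7 CPM in OFF cone bipolar nuclei to 31.9 CPM in rods. From OFF cone bipolar nuclei down to melanocytes, no class separated from the next in Grik5. Levels of different genes were compared only per 100 kb of gene length. That scale is an assumption, since whether intronic reads were counted is not given. In CPM not divided by length, Gria4 stood above Gria2 in horizontal, GABAergic, starburst and glycinergic nuclei. Per 100 kb Grik1 led in OFF cone bipolar nuclei, with 2135 CPM per 100 kb before Gria2 with 1160 and Grik5 with 176. Gria2 led in ON cone bipolar nuclei (801), GABAergic amacrine nuclei (1005), starburst nuclei (1067), glycinergic nuclei (728), ganglion nuclei (786) and horizontal nuclei (499 CPM per 100 kb). Rod bipolar nuclei were the neuron class described here in which Grik5 and Gria1, both at 148 CPM per 100 kb, came first and Gria2, at 15.1, stood below them. The rank of Grik5 depends on that scale. In undivided CPM, Gria1 (471) and Grik1 (342) stood above Grik5 (92.6) in rod bipolar nuclei. In OFF cone bipolar nuclei Gria4 (511) and Gria1 (414) stood above Grik5 (110).

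**Figure D1:**
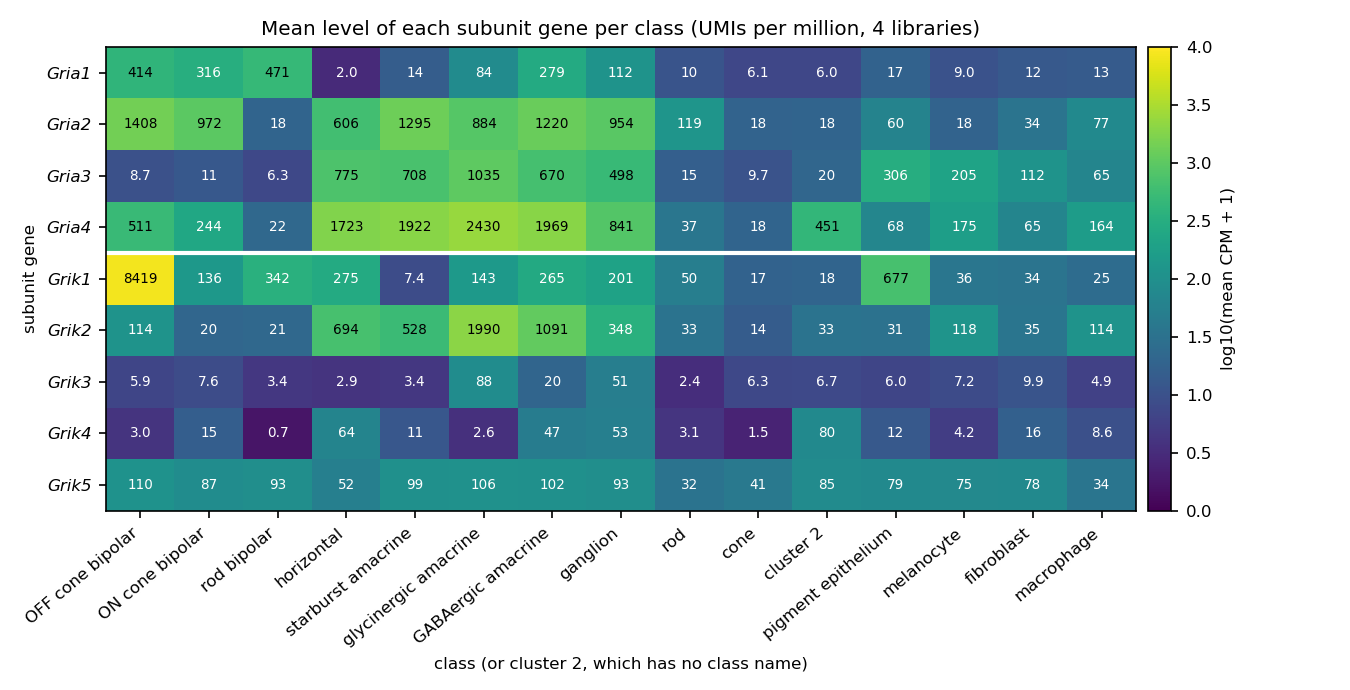
Mean CPM over the 4 libraries for each of the 9 subunit genes (rows) in 14 classes of nuclei and cluster 2 (columns), with the value printed in each cell and colour on a log scale. Grik1 reaches 8419 CPM in OFF cone bipolar nuclei, and Gria2 is at 18.3 CPM in rod bipolar nuclei against 1408 in OFF cone bipolar nuclei.

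The comparison of OFF with ON cone bipolar nuclei sets the cells that answer glutamate through AMPA and kainate channels against those that answer through mGluR6. Of the 9 genes, 6 passed the filter on low counts and all 6 were higher in OFF cone bipolar nuclei, by edgeR's quasi-likelihood test with Benjamini-Hochberg adjustment at 0.05, in which 9.06% of the 8401 genes tested were called higher, 9.43% lower and 18.5% in either direction. Gria3, Grik3 and Grik4 were too low to test, and their means were lower in OFF than in ON nuclei. Grik4 was at 2.95 CPM in OFF and 14.9 CPM in ON nuclei, higher in OFF nuclei in 0 of 4 libraries. Gria3 (8.71 and 11.4 CPM) and Grik3 (5.86 and 7.60 CPM) were each higher in OFF nuclei in 1 of 4 libraries. The median of the 6 log2 differences was 0.86, beside −0.01 for all genes tested.

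Grik1, the GluK1 gene, was by far the most different. It stood at 7934 and 7521 CPM in the 5-month and at 8904 and 9319 CPM in the 2.5-month OFF cone bipolar libraries. In ON cone bipolar nuclei it stood at 314 and 70.4 CPM at 5 months and 39.2 and 119 CPM at 2.5 months. All OFF values lay above all ON values, and the first 5-month library had the highest ON value. The log2 difference was 6.15 ± 0.22 (SE; adjusted p = 7.66e-19), which is 70.9-fold. It was 5.50 within the 5-month libraries, 6.70 within the 2.5-month libraries and 6.76 without the first 5-month library. After each nucleus was thinned to 1000 UMIs, a mean of 86.5% of OFF and 4.22% of ON cone bipolar nuclei had a Grik1 UMI (94.2% and 8.16% before thinning), and the share in cluster 2 nuclei was 2.46%. Median depth per library was 2522.5 to 3888 UMIs in OFF, 2317 to 4014 in ON and 2517 to 4022 in cluster 2 nuclei, and thinning left out 4 OFF, 13 ON and 14 cluster 2 nuclei that were shallower.

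Grik2, the GluK2 gene, was low in both classes but also higher on the OFF side. Its level was 132 and 117 CPM at 5 months and 101 and 107 CPM at 2.5 months in OFF nuclei, against 15.5 and 22.5 CPM at 5 months and 18.9 and 21.8 CPM at 2.5 months in ON nuclei. The ranges did not overlap, and the log2 difference was 2.50 ± 0.17 (adjusted p = 1.36e-12). With called doublets kept, the difference was −0.09 (adjusted p = 0.84). Keeping them left OFF Grik2 at 112 CPM and put ON Grik2 at 136 CPM. The ON class then held a subcluster of 81 nuclei with a median of 7350 UMIs and 807 CPM of Grik2. The amacrine genes Gad1 and Tfap2b in the ON class were then at 37.8 and 46.0 CPM, against 23.5 and 14.9 CPM with doublets removed.

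Gria4, the GluA4 gene, was at 515 and 457 CPM at 5 months and 489 and 585 CPM at 2.5 months in OFF nuclei, against 288 and 208 CPM at 5 months and 256 and 223 CPM at 2.5 months in ON nuclei. The ranges were apart, with a log2 difference of 1.15 ± 0.09 (adjusted p = 2.63e-11). Gria2, the GluA2 gene, differed less, at 1408 ± 69.4 CPM in OFF and 972 ± 57.4 CPM in ON nuclei, a log2 difference of 0.58 ± 0.06 (adjusted p = 2.95e-08). Gria1, the GluA1 gene, was at 414 ± 43.8 CPM in OFF and 316 ± 19.9 CPM in ON nuclei, a log2 difference of 0.43 ± 0.08 (adjusted p = 9.85e-05). Both were higher on the OFF side in 4 of 4 libraries. Grik5, the GluK5 gene, had the smallest difference, 0.37 ± 0.12 (adjusted p = 0.0287), with overlapping ranges around 110 ± 20.7 CPM in OFF and 86.8 ± 5.78 CPM in ON nuclei. That call was lost with DESeq2 (adjusted p = 0.507), with no filter on low counts (adjusted p = 0.0673), without the library block, without any one of 3 of the 4 libraries and within each age.

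**Figure D2:**
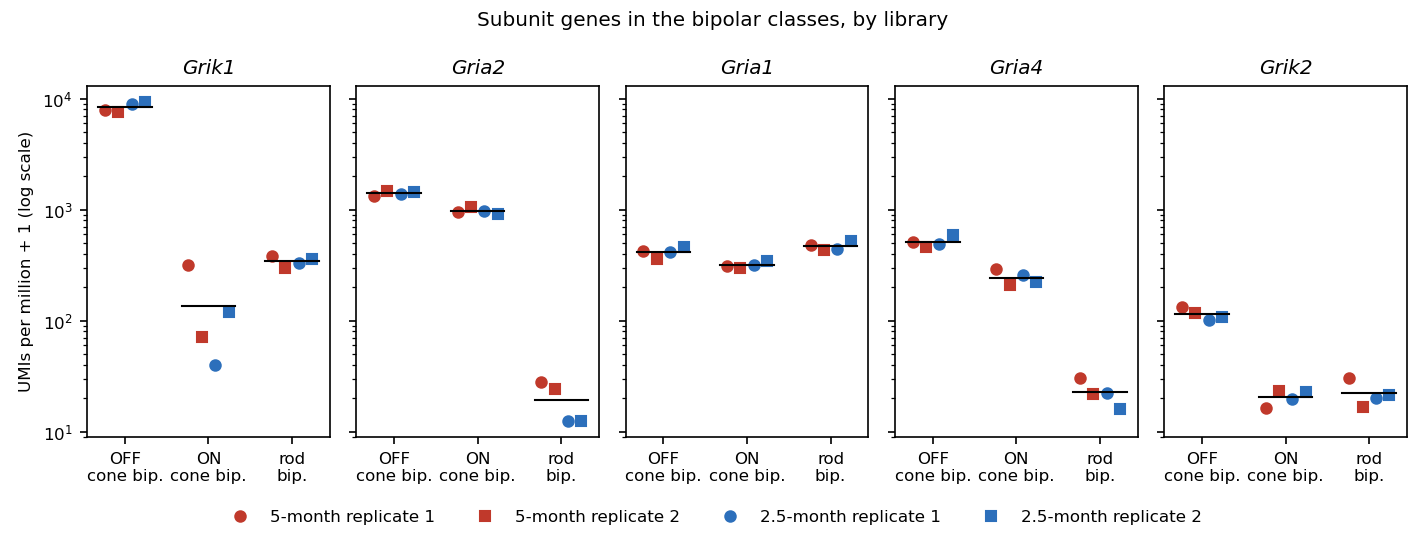
CPM plus 1, on a log axis, of Grik1, Gria2, Gria1, Gria4 and Grik2 in each of the 4 libraries, for OFF cone bipolar, ON cone bipolar and rod bipolar nuclei. Points are libraries, coloured by age, and lines are means. Grik1 separates OFF (7521 to 9319 CPM) from both other classes, and Gria2 separates rod bipolar (11.4 to 27 CPM) from both cone bipolar classes.

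Rod bipolar cells are the ON cells that carry the rod signal. The comparison of OFF cone bipolar with rod bipolar nuclei uses the same OFF libraries as the comparison above, so the OFF side is shared. Of the 6 genes tested, 4 were higher and 1 was lower in OFF cone bipolar nuclei, where 18.9% of the 7482 genes tested were called higher, 15.8% lower and 34.7% in either direction. Gria2, Gria4 and Grik2 had 38, 47 and 50 UMIs in rod bipolar nuclei, against 4477, 1666 and 353 in OFF cone bipolar nuclei. These genes passed the filter on low counts through the OFF side and so could only be called higher. The count of higher genes is therefore not read as a shared direction. The largest difference was that of Gria2. It had 1316 and 1476 CPM at 5 months and 1396 and 1442 CPM at 2.5 months in OFF cone bipolar nuclei, against 27 and 23.4 CPM at 5 months and 11.5 and 11.4 CPM at 2.5 months in rod bipolar nuclei. The rod bipolar values rest on 38 UMIs in all and were near those of classes with little Gria2, such as cluster 2 nuclei (18.3 CPM) and melanocytes (18.0 CPM). The log2 difference was 6.43 ± 0.14 (adjusted p = 3.61e-37; 86.5-fold), 5.76 within the 5-month libraries, 6.91 within the 2.5-month libraries and 5.81 with called doublets kept. The share of nuclei with a Gria2 UMI after thinning was 62.3% in OFF cone bipolar, 60.3% in ON cone bipolar, 1.40% in rod bipolar and 1.44% in cluster 2 nuclei (88.7%, 86.2%, 4.89% and 5.31% before thinning).

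Gria4 followed Gria2, at 511 ± 54.7 CPM in OFF cone bipolar and 21.6 CPM in rod bipolar nuclei, a log2 difference of 4.72 ± 0.15 or 26.3-fold. Grik1 was at 384 and 299 CPM at 5 months and 326 and 358 CPM at 2.5 months in rod bipolar nuclei, 24.3-fold below the OFF class (log2 difference 4.61 ± 0.09). The rod bipolar Grik1 values exceeded the ON cone bipolar values in 4 of 4 libraries. After thinning, 24.3% of rod bipolar nuclei had a Grik1 UMI (41.7% before), and their median depth was 2444 to 4166 UMIs. Grik2 was 5.25-fold higher in OFF cone bipolar than in rod bipolar nuclei. Gria1 was the gene called lower in OFF cone bipolar nuclei: 420 and 358 CPM at 5 months and 413 and 464 CPM at 2.5 months in OFF nuclei, against 484 and 431 CPM at 5 months and 445 and 525 CPM at 2.5 months in rod bipolar nuclei. The ranges overlapped, the log2 difference was −0.21 ± 0.08 (adjusted p = 0.0426), and the call was lost when any 1 library was left out, with DESeq2 (adjusted p = 0.395), with no filter on low counts (adjusted p = 0.152), without the library block (adjusted p = 0.329) and within each age. A Gria1 UMI was found after thinning in 36.1% of rod bipolar, 30.9% of OFF and 22.8% of ON cone bipolar nuclei, and in 0.66% of cluster 2 nuclei (67.0%, 53.0%, 43.5% and 1.83% before thinning). Grik5 was not called (log2 difference 0.19 ± 0.14, adjusted p = 0.345).

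The OFF and ON cone bipolar classes each held several subclusters, which are described by number and leading genes and without a test. Grik1 was uneven within the OFF class. It reached 16382 CPM in the 223 nuclei of subcluster 2, led by Lrfn5, 15655 CPM in the 148 nuclei of subcluster 7, led by Col11a1, and 11468 CPM in the 138 nuclei of subcluster 8, led by Erbb4. It was at 3994 CPM in the 219 nuclei of subcluster 3, 824 CPM in the 50 nuclei of subcluster 14 and 622 CPM in the 177 nuclei of subcluster 5, led by Hs3st2. The lowest library value in subcluster 8 (8284 CPM) stood above the highest in subcluster 3 (4599 CPM), and the lowest in subcluster 3 (3339 CPM) above the highest in subcluster 14 (935 CPM). The OFF subclusters therefore fell on 3 levels of Grik1 that no library bridged.

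Gria2 ran differently. It peaked in subcluster 3 with 2993 CPM (2833 to 3315 CPM over libraries), against 849 CPM in subcluster 2, where Grik1 peaked. Subcluster 3 counted Neto1, which encodes an auxiliary subunit of kainate receptors, among its leading genes. Gria1 split the OFF subclusters another way, with 776 CPM in subcluster 2 and 824 CPM in subcluster 14 but 29.5 CPM in subcluster 8 and 77.7 CPM in subcluster 3. Grik2 was concentrated in subcluster 8 at 379 CPM and was at 18.5 CPM in subcluster 2. Gria4 was lowest in subcluster 8 (138 CPM) and highest in subcluster 14 (912 CPM).

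In the 8 ON subclusters Grik1 was highest in subcluster 1, with 274 CPM pooled but 12.6 to 681 CPM across libraries, and next in subcluster 4, with 119 CPM. Gria1 split the ON subclusters into 3 with 29.0 to 33.9 CPM (subclusters 4, 11 and 12) and 5 with 178 to 580 CPM. Gria2 was highest in subcluster 6, led by Tacr1, at 1441 CPM, and Grik4 was at 54.4 CPM there, with 17.2 to 113 CPM across libraries, against 0 to 12.4 CPM in the other 7 ON subclusters. Every ON subcluster lay below every OFF subcluster in pooled Grik1.

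**Figure D3:**
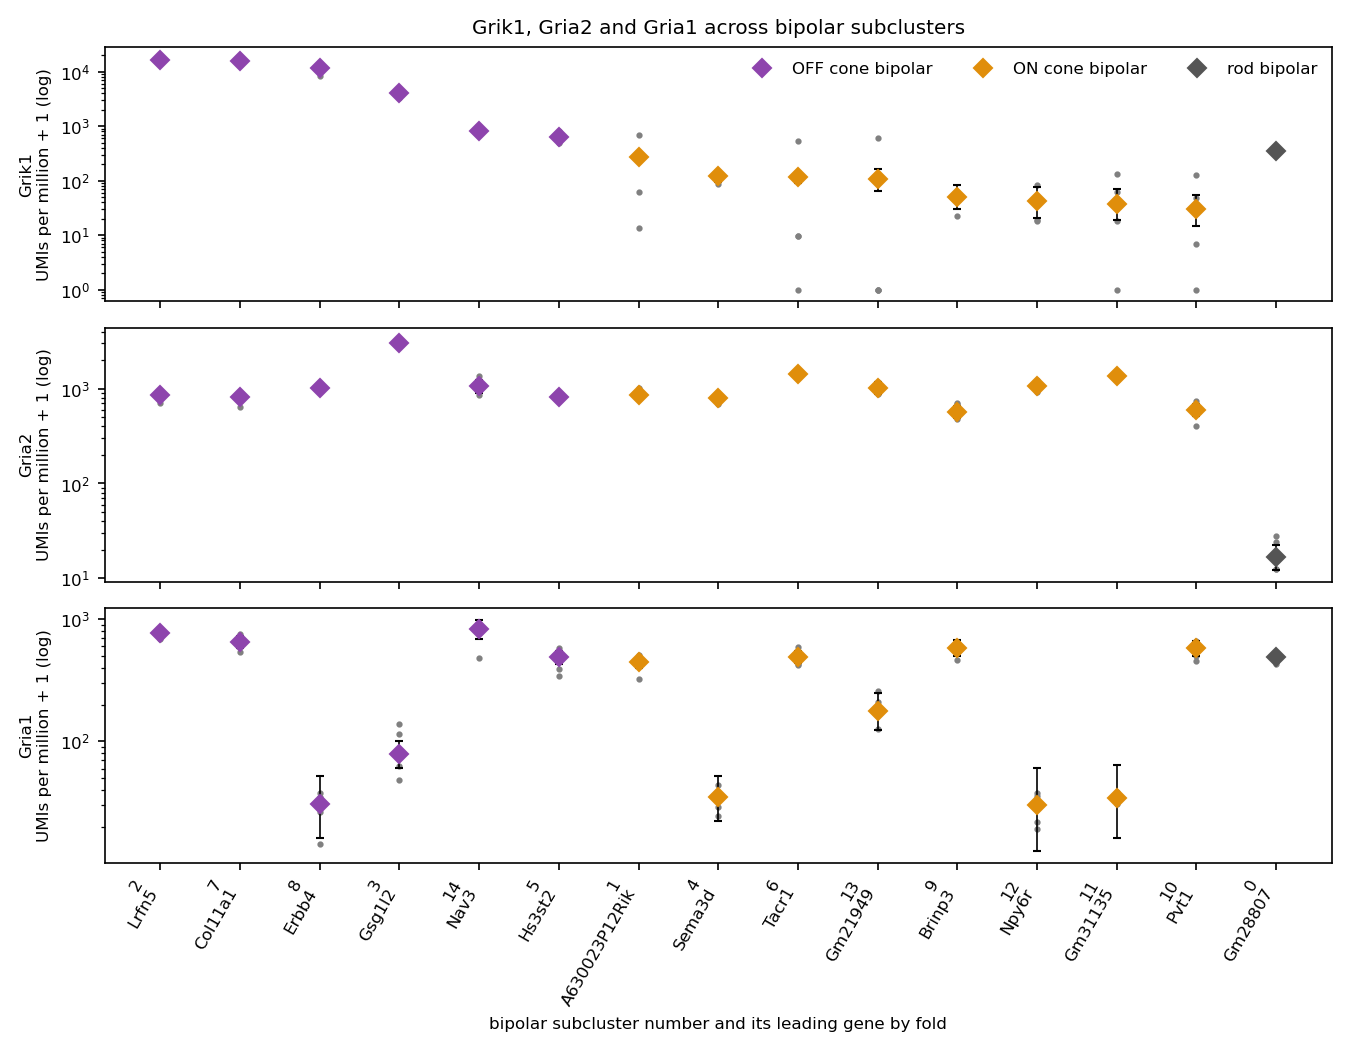
Pooled CPM of Grik1, Gria2 and Gria1 in the 15 bipolar subclusters, grouped as OFF cone, ON cone and rod bipolar. Diamonds are pooled values with 95% exact Poisson intervals, which cover counting error only, and grey dots are libraries. The OFF subclusters fall on 3 Grik1 levels (11468 to 16382, 3994, and 622 to 824 CPM), and Gria2 peaks at 2993 CPM in subcluster 3.

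Horizontal cells receive photoreceptor glutamate, and amacrine cells receive glutamate from bipolar cells. In horizontal nuclei 3 of the 9 genes were higher than in amacrine nuclei and 5 were lower, where 14.4% of the 12053 genes tested were called higher, 22.7% lower and 37.1% in either direction. The median log2 difference of the 9 genes was −0.54, beside −0.07 for all genes. Gria1 and Grik3 had 7 UMIs each in horizontal nuclei, against 8243 and 845 in amacrine nuclei. Both passed the filter on low counts through the amacrine side and so could only be called lower. Horizontal nuclei numbered 117 and 134 at 5 months and 29 and 38 at 2.5 months, so the 2.5-month values rest on few nuclei. The test scales each library by TMM factors, which CPM do not hold, and its log2 differences exceeded the log2 ratios of mean CPM by a median of 0.35 here, 0.12 in ganglion and 0.11 in starburst nuclei. The sign differed in 3 values, none of them called: Gria4 in horizontal nuclei and Gria4 and Grik5 in starburst nuclei.

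Gria1 was close to absent from horizontal nuclei, with 3.7 and 4.3 CPM at 5 months and 0 UMIs in both 2.5-month libraries, against 296 and 260 CPM at 5 months and 362 and 326 CPM at 2.5 months in amacrine nuclei. Pooled over the libraries, 7 UMIs gave 2.95 CPM with a 95% exact Poisson interval of 1.18 to 6.07 CPM. The log2 difference was −6.25 ± 0.25, −5.64 within the 5-month libraries, −6.91 without the second 5-month library and −3.55 with called doublets kept. No value is given within the 2.5-month libraries, where both horizontal counts were 0. After thinning, 0.19% of horizontal nuclei and 0.66% of cluster 2 nuclei had a Gria1 UMI (1.39% and 1.83% before thinning), with median depths of 6484 to 10432 UMIs in horizontal nuclei. The other AMPA genes were present in horizontal nuclei: Gria4 at 1675 and 1281 CPM at 5 months and 1949 and 1986 CPM at 2.5 months, Gria3 at 775 ± 160 CPM and Gria2 at 606 CPM. Gria2 was lower than in amacrine nuclei by 0.54 ± 0.09 and Gria3 higher by 0.49 ± 0.09 on the log2 scale. Amacrine Gria3 was at 686 ± 57.9 CPM, the ranges overlapped, and horizontal nuclei were higher in 3 of 4 libraries. The log2 ratio of mean CPM for Gria3 was only 0.17. Gria4 was not called (0.06, adjusted p = 0.643). Its mean CPM was 1723 in horizontal and 2085 in amacrine nuclei, higher in horizontal nuclei in 0 of 4 libraries, so no direction is read from it. A Gria4 UMI was found in 79.2% of horizontal nuclei after thinning, against 32.2% of cluster 2 nuclei (99.3% and 60.5% before).

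Among the kainate genes Grik1 was at 278 and 218 CPM at 5 months and 314 and 293 CPM at 2.5 months in horizontal nuclei, against 192 and 176 CPM at 5 months and 192 and 195 CPM at 2.5 months in amacrine nuclei. The ranges were apart and the log2 difference was 0.87 ± 0.09. Grik4 was at 102 and 71.9 CPM at 5 months and 24.1 and 57.1 CPM at 2.5 months in horizontal nuclei. In amacrine nuclei it averaged 34.2 ± 5.94 CPM, the ranges overlapped, and horizontal nuclei were higher in 3 of 4 libraries. The log2 difference was 1.39 ± 0.16, and the call was lost within the 2.5-month libraries alone (adjusted p = 0.069). Grik2 (694 CPM, −0.89 ± 0.09), Grik5 (51.9 CPM, −0.59 ± 0.14) and Grik3 were lower than in amacrine nuclei. The call of Grik5 was also lost within the 2.5-month libraries alone (adjusted p = 0.118). Grik3 had 7 UMIs in all in horizontal nuclei, 2.93 CPM, and a log2 difference of −2.99 ± 0.40.

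Starburst amacrine cells release acetylcholine as well as GABA and serve direction selectivity. Compared with the other GABAergic amacrine nuclei, 5 of the 9 genes were lower in starburst nuclei and 0 were higher, where 16.9% of the 10297 genes tested were called lower, 13.3% higher and 30.3% in either direction. Gria1, Grik1, Grik3 and Grik4 had 21, 12, 6 and 18 UMIs in starburst nuclei and 4387, 4123, 323 and 757 in other GABAergic nuclei. These genes passed the filter on low counts through the GABAergic side and so could only be called lower. The count of lower genes is therefore not read as a shared direction. The 4 AMPA genes were not alike. Gria1 was at 8.4 and 14.6 CPM at 5 months and 24.1 and 10.5 CPM at 2.5 months in starburst nuclei, against 295 and 244 CPM at 5 months and 294 and 283 CPM at 2.5 months in other GABAergic nuclei. That is a log2 difference of −4.28 ± 0.20 (19.4-fold lower), and −3.53 with called doublets kept. Gria2, Gria3 and Gria4 were at 1295, 708 and 1922 CPM in starburst nuclei, and none of them was called, with adjusted p of 0.088, 0.138 and 0.603. Of the kainate genes that need no partner, Grik2 had 848 UMIs in starburst nuclei and was lower, while Grik1 and Grik3 could only be called lower. Grik1 had 12 UMIs in starburst nuclei, with 5.6 and 7.3 CPM at 5 months and 8.0 and 8.7 CPM at 2.5 months, against 230 and 228 CPM at 5 months and 296 and 306 CPM at 2.5 months in other GABAergic nuclei. Its log2 difference was −5.04 ± 0.21 (32.8-fold lower), and −1.69 with called doublets kept. Grik2 was at 466 and 524 CPM at 5 months and 545 and 577 CPM at 2.5 months, a log2 difference of −0.94 ± 0.09, and so kept an intermediate level. Grik3 (6 UMIs, −2.23 ± 0.47, and −1.52 with doublets kept) and Grik4 (18 UMIs, −1.94 ± 0.28) were near the floor. Grik5, at 99.2 CPM, was not called (adjusted p = 0.768).

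Glycinergic amacrine cells spread their processes across the layers of the inner retina. The comparison of glycinergic with GABAergic amacrine nuclei shares its GABAergic libraries with the starburst comparison. Of the 9 genes, 4 were higher and 4 lower in glycinergic nuclei, where 14.5% of the 11555 genes tested were called higher, 18.3% lower and 32.9% in either direction. Grik4 and Grik3 differed most, in opposite directions. Grik4 had 12 UMIs in glycinergic nuclei, 2.65 CPM, against 46.6 CPM in GABAergic nuclei, a log2 difference of −4.30 ± 0.27 or 19.7-fold lower. It passed the filter on low counts through its 757 UMIs in GABAergic nuclei and so could only be called lower. Grik3 was at 77.9 and 74.7 CPM at 5 months and 85.5 and 114 CPM at 2.5 months in glycinergic nuclei, against a mean of 19.5 CPM in GABAergic nuclei. Its log2 difference was 2.11 ± 0.17 (4.32-fold), with 1.67 within the 5-month and 2.71 within the 2.5-month libraries. Grik3 was uneven over the 6 glycinergic subclusters, at 245 CPM in subcluster 1, 5.17 CPM in subcluster 0 and a median of 25.5 CPM. Only 1 of the 6 reached 100 CPM, so the class level is not one of all glycinergic nuclei. Over 27 GABAergic subclusters Grik3 ran from 0 to 193 CPM with a median of 4.79 CPM.

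Grik2 was higher in glycinergic nuclei, at 2013 and 1760 CPM at 5 months and 2025 and 2160 CPM at 2.5 months, against a GABAergic mean of 1091 CPM (log2 difference 0.83 ± 0.07). Gria3 was higher by 0.58 ± 0.07, at 1035 CPM in glycinergic and 670 CPM in GABAergic nuclei. Gria4 was higher by 0.26 ± 0.07 (adjusted p = 0.00377), and this call was lost without the library block and within the 2.5-month libraries alone. On the other side, Gria1 was at 93.8 and 92.4 CPM at 5 months and 95.6 and 55.6 CPM at 2.5 months in glycinergic nuclei, against 279 CPM in GABAergic nuclei, a log2 difference of −1.80 ± 0.11. Grik1 (−0.91 ± 0.13) and Gria2 (−0.51 ± 0.07) were lower too, and Grik5 was not called (adjusted p = 0.91). Grik1 was uneven within both classes. It had a median of 88.2 CPM over glycinergic and 218 CPM over GABAergic subclusters. Its highest glycinergic value, 1438 CPM in the 77 nuclei of subcluster 28, exceeded the highest GABAergic one, 830 CPM.

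Ganglion cells, whose axons form the optic nerve, receive from the same bipolar terminals as amacrine cells. In ganglion nuclei 3 of the 9 genes were higher than in amacrine nuclei and 4 were lower, where 24.3% of the 14445 genes tested were called higher, 26.5% lower and 50.8% in either direction. Grik2 differed most: 336 and 323 CPM at 5 months and 347 and 385 CPM at 2.5 months in ganglion nuclei, against a mean of 1637 CPM in amacrine nuclei, a log2 difference of −2.09 ± 0.06 (4.27-fold lower). Gria1 was at 109 and 93.8 CPM at 5 months and 101 and 143 CPM at 2.5 months in ganglion nuclei, against 296 and 260 CPM at 5 months and 362 and 326 CPM at 2.5 months in amacrine nuclei, with no overlap and a log2 difference of −1.35 ± 0.07. Gria4 was at 849 and 716 CPM at 5 months and 865 and 935 CPM at 2.5 months in ganglion nuclei, against a mean of 2085 CPM in amacrine nuclei (−1.18 ± 0.05). Gria3 was lower by 0.34 ± 0.05, a call lost without the library block, and Gria2, at 954 ± 24.8 CPM in ganglion and 1120 ± 38.8 CPM in amacrine nuclei, missed the threshold (−0.11 ± 0.05, adjusted p = 0.067).

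The kainate genes Grik3 and Grik4, both low in amacrine nuclei as a whole, were higher in ganglion nuclei. Grik3 was at 56.0 and 40.5 CPM at 5 months and 50.1 and 58.5 CPM at 2.5 months in ganglion nuclei, against 30.3 and 31.3 CPM at 5 months and 25.2 and 33.3 CPM at 2.5 months in amacrine nuclei (0.85 ± 0.09). Grik4 was at 58.1 and 49.9 CPM at 5 months and 52.2 and 52.5 CPM at 2.5 months in ganglion nuclei, against 34.2 CPM in amacrine nuclei (0.73 ± 0.09). Grik1, at 201 ± 36.8 CPM in ganglion and 189 CPM in amacrine nuclei, was called higher by 0.19 ± 0.07 (adjusted p = 0.0251), but its ranges overlapped and the call was lost with DESeq2, without the library block (adjusted p = 0.301), without the first library of either age (adjusted p = 0.352 without that of 5 months and 0.108 without that of 2.5 months), within each age and with called doublets kept. Grik5 was not called (adjusted p = 0.982). An amacrine cluster of 765 nuclei had a marker of another class among its 10 leading genes, and leaving it out, an alternative chosen after seeing the data, changed no call of a member here and gave 0.39 for Grik1.

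Within the amacrine and ganglion classes the subunits other than Grik5 spanned wide ranges. Across 43 amacrine subclusters Grik2 ran from 171 to 9059 CPM with a median of 1211, and its peak was subcluster 6, 199 nuclei led by Scube1, Myrfl and Vwa5b1, with 7729 to 9880 CPM over libraries. Gria1 ran from 8.27 CPM, in subcluster 0 of 420 glycinergic nuclei, to 2375 CPM in the 59 nuclei of subcluster 34, with 2253 CPM in subcluster 15, led by Trhde, Shisa9 and Vipr1. That glycinergic subcluster with almost no Gria1 had Gria3 at 1479 CPM. Gria3 itself ran from 8.08 to 1836 CPM, with its peak in subcluster 12, led by Kit. Grik3 was at 245 CPM in the 418 glycinergic nuclei of subcluster 1, led by Esr1, and at a median of 5.42 CPM over the amacrine subclusters. Grik4 reached 582 CPM in subcluster 40, 28 nuclei led by Gpc4, Cbln4 and Slc18a2, against a median of 13.4 CPM. Grik1 ran from 5.39 to 1438 CPM, with its peak in glycinergic subcluster 28, led by Exph5. Gria2 ran from 440 to 2015 CPM and Gria4 from 542 to 3167 CPM. Grik5 stayed between 59.5 and 151 CPM.

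Across 31 ganglion subclusters Gria1 ran from 1.5 to 1137 CPM, with its peak in the 88 nuclei of subcluster 2, led by Pde1a. Gria2 (1832 CPM) and Gria4 (1678 CPM) peaked together in subcluster 25, 37 nuclei led by Htr2c, Cdh9 and Foxp2. Grik1 (745 CPM) and Grik3 (234 CPM) peaked together in subcluster 12, 59 nuclei led by Cacna1e. Subcluster 29, 30 nuclei with the melanopsin gene Opn4 among its leading genes, had Gria1 at 306, Grik2 at 558 and Gria3 at only 32 CPM, the last of which lay between 8.2 and 899 CPM over all ganglion subclusters. Grik2 ran from 34.7 to 852 CPM, and Grik4 was highest, at 172 CPM, in subcluster 14, led by Zic1. Grik5 again had a narrow span, 54.7 to 137 CPM.

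**Figure D4:**
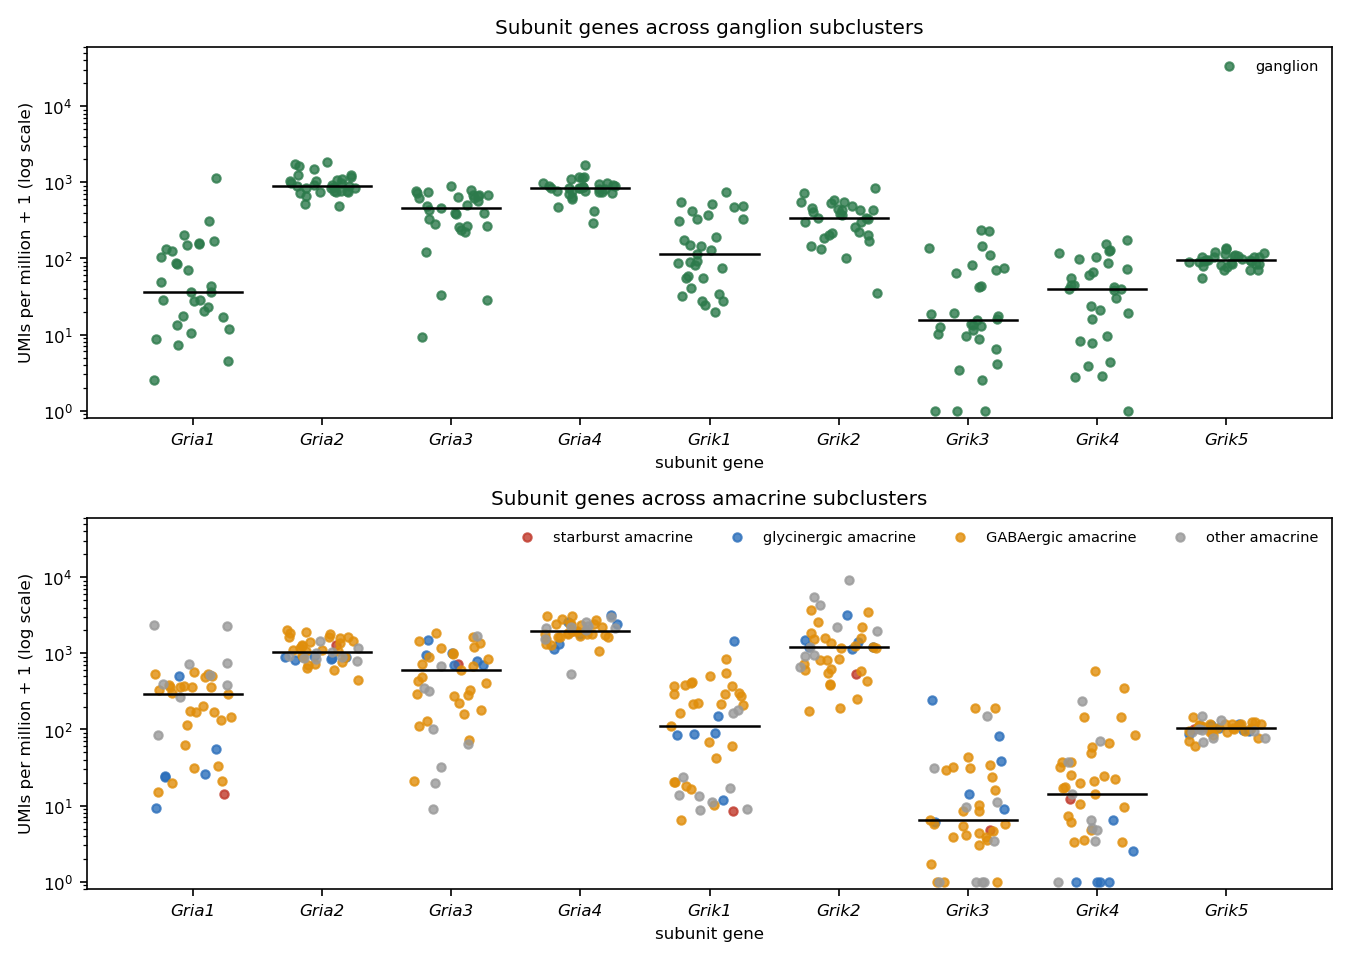
Pooled CPM plus 1, on a log axis, of each of the 9 subunit genes in the 31 ganglion subclusters (upper panel) and the 43 amacrine subclusters (lower panel). Points are subclusters and lines are medians. In amacrine subclusters Grik2 spans 171 to 9059 CPM, while Grik5 spans 59.5 to 151 CPM.

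Outside the neurons that receive bipolar or photoreceptor glutamate, a few levels stood out. Gria4 in cluster 2 nuclei was at 372 and 356 CPM at 5 months and 509 and 568 CPM at 2.5 months, and Grik4 was at 68.3 and 61.9 CPM at 5 months and 83.8 and 104 CPM at 2.5 months. Nuclei with the markers of the retinal pigment epithelium, 256 in all, had Grik1 at 631 and 557 CPM at 5 months and 597 and 924 CPM at 2.5 months, the second highest mean after OFF cone bipolar nuclei. Gria3 was at 306 CPM in those nuclei and 205 CPM in melanocytes. In rods Gria2 was at 119, Grik1 at 49.7 and Grik5 at 31.9 CPM. UMIs of 18 rod genes were found in every class. They summed to between 13.8% and 20.7% of their rod level in OFF cone bipolar nuclei, 3.44% and 7.48% in ganglion nuclei, 39.8% and 44.3% in cones and 9.30% and 27.1% in macrophages, and their source was not tested.

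Genes whose products bind, fold, anchor or edit these receptors formed 7 lists with 56 genes. Their log2 differences are given after their levels. A gene near the floor in 1 class of a pair passes the filter on low counts through the other class. It can then only be called lower in the first. The counts and medians of these lists are therefore not read as a shared direction. In OFF against ON cone bipolar nuclei 11 were higher and 7 lower of 36 tested (9.06% higher and 9.43% lower of all genes), with a median log2 difference of −0.00 beside −0.01 for all genes. Neto1, the kainate receptor auxiliary subunit, had the largest difference, at 937 ± 159 CPM in OFF and 4.02 CPM in ON nuclei (8.01 ± 0.17), and 5.54 with called doublets kept. The ON level of Neto1 (± 2.20 CPM, SD) was near the floor, so the size of its difference is uncertain. It passed the filter on low counts through the OFF side and so could only be called higher. The AMPA receptor auxiliary subunit Shisa6 was at 122 CPM in OFF and 9.92 CPM in ON nuclei (3.65, and 2.6 with doublets kept), and the synaptic adhesion gene Lrrtm3 at 500 CPM in OFF and 25.5 CPM in ON nuclei (4.17). On the other side were Adarb2, an RNA-binding relative of the editing enzymes, at 37.8 ± 48.1 CPM in OFF and 2138 CPM in ON nuclei (−6.16, from −8.70 within the 2.5-month to −4.92 within the 5-month libraries and −7.27 without the first 5-month library), Vwc2l, another AMPA receptor partner, at 17.0 CPM in OFF and 438 CPM in ON nuclei (−4.72, and −4.10 within the 5-month libraries), and Olfm1 at 34.9 CPM in OFF and 73.2 CPM in ON nuclei (−1.0).

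Against rod bipolar nuclei 16 of 33 accessory genes were higher in OFF cone bipolar nuclei and 6 lower (18.9% higher and 15.8% lower of all genes), with a median of 0.59 beside 0.01 for all genes. Neto1 (937 CPM in OFF cone bipolar against 2.23 CPM in rod bipolar nuclei, 8.52), Lrrtm3 (500 CPM in OFF cone bipolar against 3.44 CPM in rod bipolar nuclei, 6.85, and 8.25 within the 5-month libraries) and Shisa6 led again. Shisa6 was at 122 CPM in OFF cone bipolar and 0.44 CPM in rod bipolar nuclei, too few UMIs for a fold. The rod bipolar levels of Neto1 (± 2.69 CPM, SD) and Lrrtm3 (± 2.65 CPM) were also near the floor, so the size of their differences is uncertain. Lrrtm4, an adhesion protein of rod bipolar synapses, was at 243 CPM in OFF cone bipolar and 9969 CPM in rod bipolar nuclei (−5.38), Vwc2l was lower by 5.08, and the scaffold gene Dlg2 was at 3391 CPM in OFF cone bipolar and 13629 CPM in rod bipolar nuclei (−2.03).

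In ganglion and horizontal nuclei more of the accessory genes were lower than higher relative to amacrine nuclei. In ganglion against amacrine nuclei 14 were higher and 30 lower of 55 (24.3% higher and 26.5% lower of all genes), with a median of −0.48 beside −0.02 for all genes. Olfm1 (188 CPM in ganglion and 45.7 CPM in amacrine nuclei, 2.15), Olfm2 (1.89) and Nptx1, a pentraxin that clusters AMPA receptors (1.86), were the highest, and C1ql2 (−5.03, and −4.39 with doublets kept), Adarb2 (−3.67) and Cbln2 (−3.46) the lowest. In horizontal against amacrine nuclei 6 were higher and 35 lower of 53 (14.4% higher and 22.7% lower of all genes), with a median of −1.60 beside −0.07. Of the 16 AMPA auxiliary subunit genes, 12 were lower there and 3 were higher, namely Vwc2 (1427 CPM in horizontal and 212 CPM in amacrine nuclei, 3.05), Syndig1 (188 CPM in horizontal and 50.8 CPM in amacrine nuclei, 2.23) and Cacng3 (476 CPM in horizontal and 231 CPM in amacrine nuclei, 1.35). Cnih3 had 0 UMIs in horizontal nuclei of all 4 libraries and 17.6 CPM in amacrine nuclei. Lrrtm3 was at 0.574 CPM in horizontal and 232 CPM in amacrine nuclei, again too few UMIs for a fold. Shisa9 was at 1.74 ± 1.17 CPM in horizontal and 157 CPM in amacrine nuclei (−5.66, and −2.36 with doublets kept). That horizontal level was near the floor, so the size of the difference is uncertain. Cnih3, Lrrtm3 and Shisa9 passed the filter on low counts through the amacrine side and so could only be called lower.

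In starburst against other GABAergic nuclei 9 accessory genes were higher and 33 lower of 53 (13.3% higher and 16.9% lower of all genes), with a median of −1.63 beside −0.02. Of the 16 AMPA auxiliary subunit genes 10 were lower and 2 higher. The higher ones were Cacng2 (331 CPM in starburst and 112 CPM in other GABAergic nuclei, 1.67) and Cacng5 (90.8 CPM in starburst and 31.9 CPM in other GABAergic nuclei, 1.65). Olfm1, of another list, was also higher (1.16). Vwc2 was at 4.66 CPM in starburst and 341 CPM in other GABAergic nuclei (−6.18, with −5.50 within the 5-month libraries, −7.14 within the 2.5-month libraries and −5.20 with doublets kept), C1ql2 was at 1.61 CPM in starburst and 106 CPM in other GABAergic nuclei, and Cnih3 at 0.606 CPM in starburst and 26.5 CPM in other GABAergic nuclei, both called lower. The starburst level of Vwc2 (± 2.36 CPM, SD) was near the floor, so the size of its difference is uncertain. Vwc2, C1ql2 and Cnih3 passed the filter on low counts through the GABAergic side and so could only be called lower. Both Neto1 and Neto2 were called lower in starburst, in horizontal and in glycinergic nuclei. In glycinergic against GABAergic nuclei 11 were higher and 33 lower of 54 (14.5% higher and 18.3% lower of all genes), with a median of −0.40 beside −0.00. Here Shisa6 (519 CPM in glycinergic and 51.8 CPM in GABAergic nuclei, 3.33), Syndig1 (158 CPM in glycinergic and 19.6 CPM in GABAergic nuclei, 2.98) and Cacng5 (1.70) were higher, and of the 16 AMPA auxiliary subunit genes 7 were higher and 5 lower. Vwc2 (−5.28), Cnih3 (0.753 CPM in glycinergic and 26.5 CPM in GABAergic nuclei) and Cbln2 (−4.39) were the lowest. The glycinergic level of Cbln2 (3.70 ± 2.18 CPM, SD) was near the floor, so the size of its difference is uncertain.

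Some other genes had class profiles close to those of the subunits. Likeness was measured as Pearson's r of log2(mean CPM + 1) over 14 classes and cluster 2 from the same 4 libraries, among 14861 genes, and is given as a description. The closest profile to that of Gria1 was Cntn4 (r = 0.947), to Gria2 Rab3c (0.957), to Gria3 Gnai1 (0.934) and to Gria4 Kctd8 (0.958). The closest to Grik2 was Cacng3 (0.932), which encodes an AMPA receptor auxiliary subunit, and the closest to Grik5 was 0610040F04Rik (0.942). Grik1 had no profile nearer than Trpc7 (0.808), followed by Arhgap26 (0.807) and Hcn3 (0.802). For Grik3 and Grik4 the closest were Gm10578 (0.913) and Dgkb (0.865). Among the 9 genes themselves Gria4 and Grik2 were the most alike (0.88), and Gria1 and Grik4 the least (−0.21).

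Age was tested within 8 classes and cluster 2, with 2 libraries per age. Of 65 tests of a subunit gene, 0 were called by edgeR's quasi-likelihood test and 0 by DESeq2, and 8 had an unadjusted p under 0.05 in edgeR. The lowest adjusted p was 0.32. The share of all genes with an unadjusted p under 0.05 is not given here, so the 8 are not read as an excess. Over all genes, the share called was 0.0487% in rods, 0.0869% in cones, 0.062% in rod bipolar, 0.164% in ON cone bipolar, 0.11% in OFF cone bipolar, 0.099% in horizontal, 0.0196% in amacrine, 0.052% in ganglion and 0.0954% in cluster 2 nuclei. The 65 log2 differences ran from −0.52 to 1.52, with 34 above and 31 below 0.

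The lowest p belonged to Gria2 in rods, at 147 and 155 CPM at 5 months against 89.0 and 85.0 CPM at 2.5 months, with no overlap. The log2 difference was 0.81 ± 0.16 (adjusted p = 0.32), and it was called only with no filter on low counts (adjusted p = 0.016). Grik2 in rods (0.89 ± 0.30) and Gria2 in cones (1.19 ± 0.40) also had positive differences that missed the adjusted threshold. In cluster 2 nuclei the difference was −0.52 ± 0.16 for Gria4, −0.49 ± 0.20 for Grik4 and 1.52 ± 0.53 for Grik3, none past the adjusted threshold. Horizontal Grik4, at 102 and 71.9 CPM at 5 months against 24.1 and 57.1 CPM at 2.5 months, had a difference of 1.13 ± 0.36 that was not called (adjusted p = 0.565), and 2.02 without the second 2.5-month library (adjusted p = 0.18).

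Grik1 in ON cone bipolar nuclei turned direction with 1 library. It had 314 and 70.4 CPM at 5 months against 39.2 and 119 CPM at 2.5 months, overlapping, with a log2 difference of 1.16 ± 0.49 (adjusted p = 0.636). The difference was −0.33 without the first 5-month library. It was 1.89 without the second 5-month library and 2.28 without the second 2.5-month library, and was called in both. Grik1 in OFF cone bipolar nuclei, its main site, was at 7934 and 7521 CPM at 5 months against 8904 and 9319 CPM at 2.5 months, without overlap, and its difference of −0.24 ± 0.15 was not called (adjusted p = 0.79).

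Of the accessory genes, Adarb2 in OFF cone bipolar nuclei was the one called between ages. It averaged 71.0 ± 50.3 CPM at 5 months and 4.61 ± 1.61 CPM at 2.5 months (SD, n = 2 each), a log2 difference of 3.73 ± 0.58 (edgeR adjusted p = 0.021). Without the first 5-month library it was 2.74 (adjusted p = 0.309), and with class sums thinned to the smallest library 4.48 (adjusted p = 0.101), so that the call was lost in both. Adarb2 was at 2138 CPM in ON cone bipolar nuclei. Whether an age difference differed between ganglion and amacrine nuclei was tested as an interaction over 15442 genes, of which 0.246% were called. None of the 9 genes was among them, and Grik2 (0.30 ± 0.09, adjusted p = 0.219) and Gria4 (0.18 ± 0.08, adjusted p = 0.523) were the members with an unadjusted p under 0.05.

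**Figure D5:**
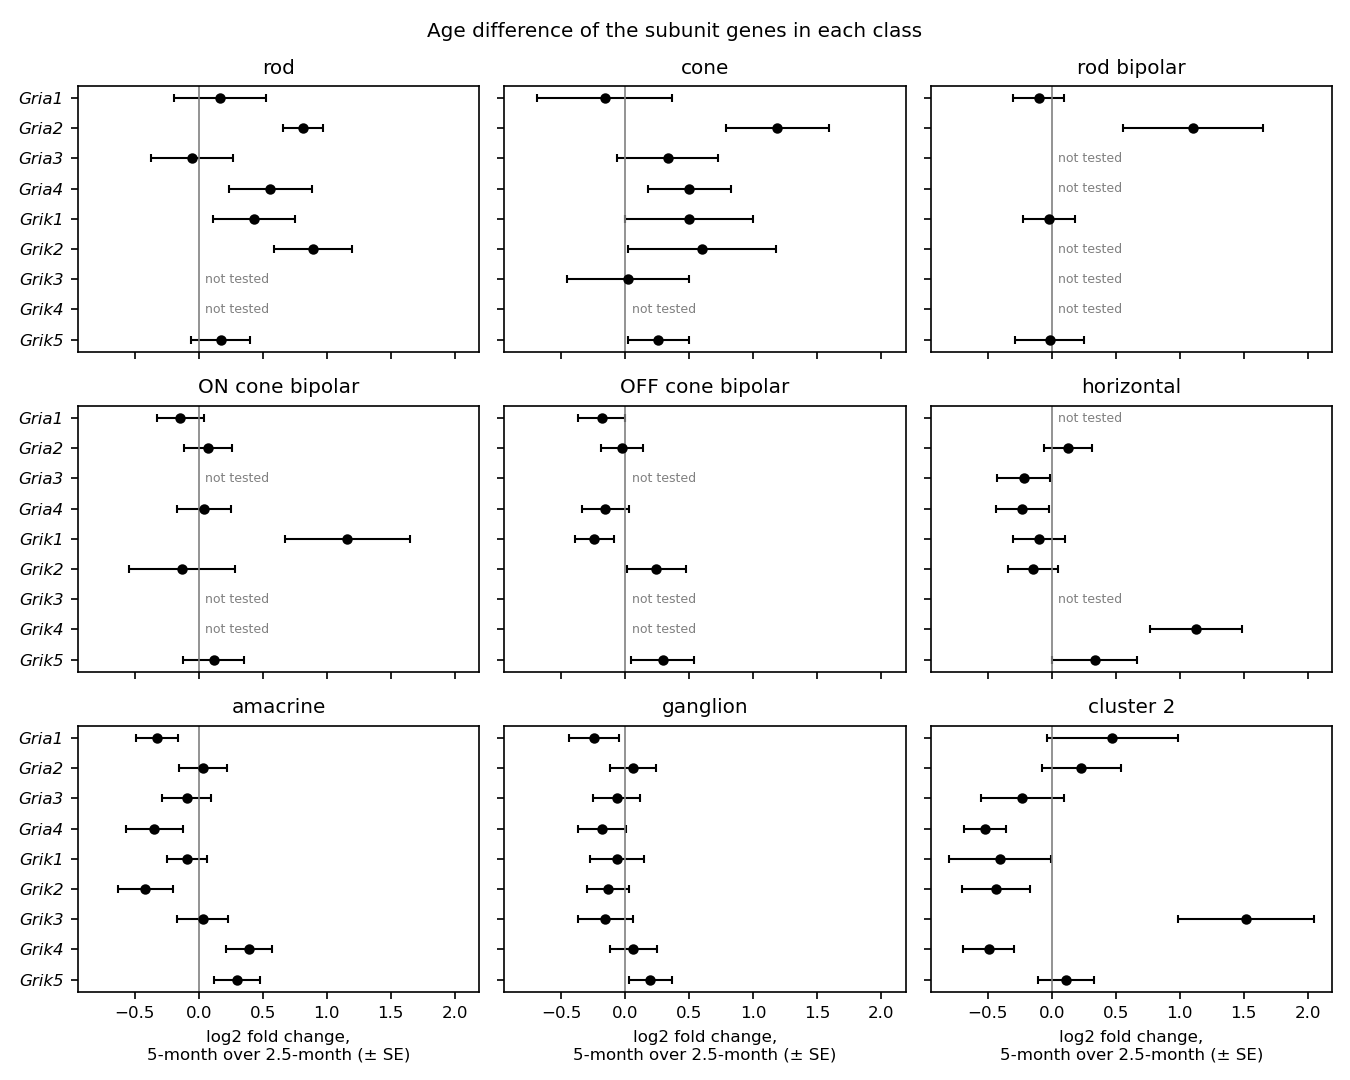
Log2 fold change of 5-month over 2.5-month libraries, with its standard error, for each of the 9 subunit genes in each of 8 classes and cluster 2 (panels). Those in which a gene did not pass the filter on low counts are marked as not tested. The values lie between −0.52 and 1.52, and none passed the adjusted threshold.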

How the data were processed

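Single-nucleus UMI counts per gene were deposited by the authors as 1 matrix per library. Per the submitters' processing notes they were made with Cell Ranger 7.1.0 (2.5-month) and 4.0.0 (5-month) on mm10, and whether intronic reads were counted is not given in the sources used here. A filter of 300 or more genes and no more than 5% mitochondrial UMIs took out 27 of the 32326 nuclei. Doublets called at an expected rate of 0.06 were removed (1963 nuclei). In the first 2.5-month library the automatic threshold marked 0.027% and another threshold was used. Clustering used scanpy 1.11.5 with leidenalg 0.10.2 on 2000 variable genes, and classes needed 3 raised markers. The rule that split OFF from ON subclusters was chosen after seeing the data. UMI counts were summed per class and library (OFF cone bipolar 506792 to 1390989, horizontal 207277 to 931640 UMIs) and tested with edgeR 4.0.16 (TMM, quasi-likelihood test, Benjamini-Hochberg adjustment over all genes, called under 0.05), with library as a block between classes and no block between ages, and with DESeq2 1.42.0 as an alternative. The scripts were tested on simulated data. All 9 members are named. Of the accessory genes, up to 3 called genes in each direction with the largest change and at least 10 CPM are named, and of other genes the 3 of highest likeness to each member were ranked. Members and lists were chosen with earlier results of these data known. P-values between classes set the difference against its scatter from library to library, with the level of each library taken out by the block. P-values between ages set the difference against the spread between libraries of the same age. Poisson intervals cover counting error only.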

Additional observations from a re-analysis of the deposited data

How the results depend on the processing

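Over 594 alternative values of the members' class differences, 548 kept direction and call, 29 lost the call, 1 gained it and 16 turned direction. Of the turned values, 1 was called in the original setting: Grik2 in OFF against ON cone bipolar nuclei, −0.092 with doublets kept. The others were uncalled values near 0. Grik5 in ganglion against amacrine nuclei was 0.0037 with median-of-ratios size factors, 0.0087 with DESeq2, −0.027 to 0.013 with 1 library left out, 0.0031 with no library block, 0.038 within 2.5 months and 0.032 with doublets kept. Gria4 in horizontal nuclei was −0.023 with doublets kept. In starburst nuclei Gria4 was −0.043 with no filter, −0.031 to 0.134 with 1 library left out and −0.065 within 2.5 months, and Grik5 was −0.035 with no filter, −0.115 to 0.155 with 1 library left out and −0.048 within 2.5 months. Grik5 in glycinergic nuclei was −0.034 with no filter and −0.013 with doublets kept. Between ages, Grik1 in ON cone bipolar nuclei was −0.33 without the first 5-month library and up to 2.28 with another left out. The cause was not tested.

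Genes called in OFF against ON cone bipolar nuclei numbered 1553, but 891 with DESeq2, 1024 with no library block and 1014 within 5 months. Against rod bipolar nuclei 2597 became 1706 with DESeq2. In ganglion nuclei 7333 became 4277 with no library block, and in horizontal nuclei 4472 became 2393 within 2.5 months. In glycinergic nuclei 3800 became 2486 with DESeq2, 2326 with no library block and 2279 within 2.5 months.

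Between ages the number of calls moved with most settings. With no filter, 1 member was called in rods and 1 in ON cone bipolar nuclei, where leaving out 1 library gave 0 to 1. In the order of the original count, no filter and the range over libraries left out, all genes called were 6, 149 and 11 to 137 in rods, 10, 76 and 12 to 75 in cones, 4, 19 and 16 to 53 in rod bipolar, 14, 38 and 26 to 61 in ON and 9, 39 and 5 to 52 in OFF cone bipolar, 7, 61 and 0 to 57 in horizontal, 3, 228 and 7 to 106 in amacrine, 7, 107 and 8 to 102 in ganglion and 12, 135 and 23 to 52 in cluster 2 nuclei. DESeq2 called 24 in rods, 17 in cones, 33 in amacrine and 15 in ganglion nuclei. Median-of-ratios factors gave 7 in rod bipolar and 8 in amacrine nuclei. With doublets kept there were 2 in cones, 27 in ON cone bipolar, 15 in horizontal and 5 in amacrine nuclei. Thinning class sums to the smallest library gave 2 in rod bipolar, 9 in ON cone bipolar and 7 in amacrine nuclei, and leaving out the amacrine cluster led by another class's marker gave 6. The interaction called 38 genes, 69 with median-of-ratios factors and 4 to 148 with 1 library left out.

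With the replicate number as a block, 31 genes were called in rods, 33 in cones, 12 in rod bipolar, 27 in ON cone bipolar, 12 in horizontal, 40 in amacrine, 49 in ganglion and 56 in cluster 2 nuclei, and no member in any class. Deviations of same-numbered libraries correlated at −0.0374 to 0.0811. With 2 libraries per age, this gave no sign that the replicate numbers pair the samples, but it cannot exclude pairing.

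Leaving out 1 library of a 2-library age assumes that the lone library varies like the other age. The depth limits what is said of Grik3 and Grik4, each with under 20 UMIs in several classes, and of the 2.5-month horizontal nuclei.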
